A study of Mus musculus with 12 samples.

Results

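Cadherins and genes of the epithelial-mesenchymal transition (EMT) were followed in mouse embryonic stem cells after induction of a fusion of the transcription factors Tcf15 and E47. The 9 genes were Cdh1, Epcam, Snai1, Zeb1, Zeb2, Cdh2, Vim, Fn1 and Mmp2, and every probe that the platform annotation gives to one of them was taken, whatever its values. They had 19 of the 38561 probes, and 9 of the 18524 named genes, in the authors' normalized table. A probe counted as detected on an array where its detection p-value was below 0.01, and it was tested when 2 or more arrays detected it. This left 7 of the 19 probes, from 6 of the 9 genes, out of 13914 probes in all.

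The cells were E14tg2a embryonic stem cells of strain 129/P2, an established line, grown with serum and leukaemia inhibitory factor (LIF), a cytokine that holds such cells undifferentiated. The Tcf15-E47 cells carry the fusion under control of doxycycline (dox). They were sampled after 0, 8, 12 and 24 h with dox, and the parental line after 0 and 8 h, with 2 arrays in each of the 6 groups. Treated cells of both lines received 1 µg/mL dox, and the 0 h cells none. No parental arrays at 12 or 24 h were analysed here, so at those times an effect of dox itself and one of the fusion cannot be told apart. Whether the Tcf15-E47 line is 1 clone is not given in the sources used here.

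Cadherins are transmembrane proteins that join neighbouring cells by binding the same cadherin on the next cell, and catenins tie them to actin inside. In EMT, epithelial cells lower E-cadherin and other junction proteins and gain N-cadherin, vimentin, fibronectin and matrix-degrading enzymes, under transcription factors of the Snail, Zeb and Twist families that can repress the E-cadherin gene through E-box sequences. Mouse embryonic stem cells grow as tight colonies held together by E-cadherin, and a form of EMT takes place in the embryo when mesoderm leaves the primitive streak.

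Of the 6 genes with a tested probe, Zeb1 and Mmp2 rose after 24 h in Tcf15-E47 cells, by 1.57-fold and 1.69-fold, and Fn1 fell after 12 h, by 1.48-fold, on 1 of its 2 tested probes. All of these calls depended on single arrays, as given below. In 9 other settings of the processing, those of Zeb1, Mmp2 and Fn1 held in 8, 7 and 7. Cdh1 passed the test at no time, and its log2 change from 0 h was −0.06, −0.06 and −0.03 at 8, 12 and 24 h. Snai1 and Vim did not pass either. The probes of Cdh2, Epcam and Zeb2 were detected on 0 arrays.

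Signal medians ran from 89 to 103 units over the 12 arrays and 30.7% to 34.7% of probes were detected. Across probes, which are not independent replicates, the correlation of both arrays in a group was r = 0.993 to 0.996. All 9 stem cell markers on the array were detected on all 12 arrays, among them Pou5f1, and the 6 mesoderm markers were detected on none. Of the 9, Nanog, a core pluripotency factor, fell at 12 h (log2 change −1.14 ± 0.0961, limma adjusted p = 0.000121) and at 24 h (−0.99, adjusted p = 0.000346). Utf1 rose at 12 h (0.46, adjusted p = 0.0355) and at 24 h (0.51, adjusted p = 0.0359). Both Nanog calls held with each of the 4 arrays compared left out in turn, and those of Utf1 in 0 of these cases. No label says that the 2 arrays of a group came from separate cultures, so p values measure only the spread between these samples, which may be technical. Levels are normalized log2 units throughout, log2 change means the difference of 2 group means in those units, and a probe was called at an adjusted p under 0.05 (limma, all 13914 probes).

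One array stood apart. Replicate 2 of the parental cells with 8 h of dox had Acta2, a smooth muscle actin, at 11.03, where the other 11 arrays lay between 4.43 and 5.48. On it the collagen genes Col1a1 (5.83) and Col1a2 (5.85) and the smooth muscle gene Tagln (5.37) were detected, and on the other 11 arrays they were not. It held the highest level of 7 of the 11 fibroblast and smooth muscle markers, and of these 7, Col3a1 and S100a4 were not detected on it. The summed level of the 11 markers was 356 and 2570 in parental cells with 8 h of dox, against 343 and 345 in parental cells without dox. Acta2 alone made up 2085 of the 2570. On this array 8 tested probes lay more than 1 log2 unit above every other array. The parental array without dox, replicate 2, had 5 such probes, and the other 10 arrays had 0. The array also carried the highest Vim of all 12 and the highest Mmp2 of the 4 parental arrays, so parental responses below are given with and without it. All groups share 1 estimate of the spread, so it also enters the SEs and p values within the Tcf15-E47 line. Those were not refitted without this array alone. The standard deviation of Mmp2 was 0.32 and 0.42 in parental cells at 0 and 8 h, and 0.09 to 0.15 in Tcf15-E47 groups. For Vim it was 0.29 and 0.41, and 0.00 to 0.14.

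**Figure D1:**
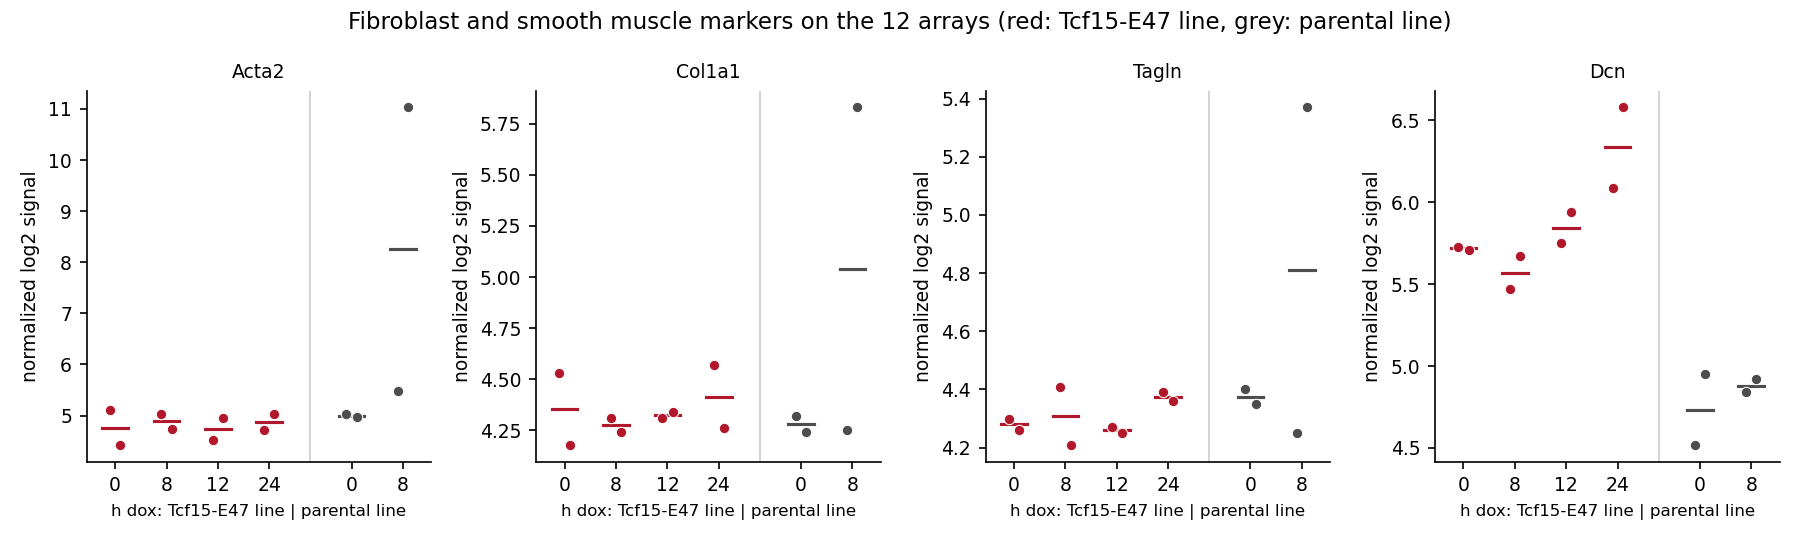
Normalized log2 signal of 4 fibroblast and smooth muscle markers on each of the 12 arrays (points) with the mean of the 2 arrays (lines), by hours of dox, for Tcf15-E47 cells (red, left) and parental cells (grey, right). Acta2, Col1a1 and Tagln stand out on replicate 2 of the parental cells with 8 h of dox, Acta2 at 11.03, and Dcn lies above all parental arrays on every Tcf15-E47 array.

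In Tcf15-E47 cells the same markers were low: 8 of the 11 were detected on none of the 8 arrays, and their summed level was 346 to 385 after 24 h of dox against 347 to 351 without dox. Acta2, Col1a1, Col1a2, Col3a1 and Tagln stayed below the level of that parental array on all of them. Dcn, which encodes the matrix proteoglycan decorin, was at 6.09 and 6.58 after 24 h of dox, against 5.73 and 5.71 without dox, and did not pass. Its part in the results below was not tested.

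The first question was which of the 9 genes these cells gave a measurable signal for. Of the 12 probes that were not tested, none reached detection on any array. Their signals lay between 83.1 and 107 units, next to a median of 95.7 over all probes and arrays, and their lowest detection p was 0.0256. On the normalized scale they lay between 4.18 and 4.72, and the lowest level at which any probe was detected was 4.81 to 5.10, depending on the array. They were 1 probe of Cdh2, which encodes N-cadherin, 1 of Epcam, which encodes an epithelial adhesion molecule, all 5 of Zeb2, and 5 further probes of Zeb1, Snai1, Vim and Fn1.

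Cdh2 (ILMN_2605503) was not well above background on any array of either line, also after 24 h of dox. The same held for Epcam (ILMN_1240539), whose group means ran only from 4.21 to 4.30. Such a probe gives a bound and not a level, and where a gene has a single probe a weak probe and a low transcript cannot be told apart. For Zeb1, Snai1, Vim and Fn1 the array held both detected and undetected probes of the same gene.

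**Figure D2:**
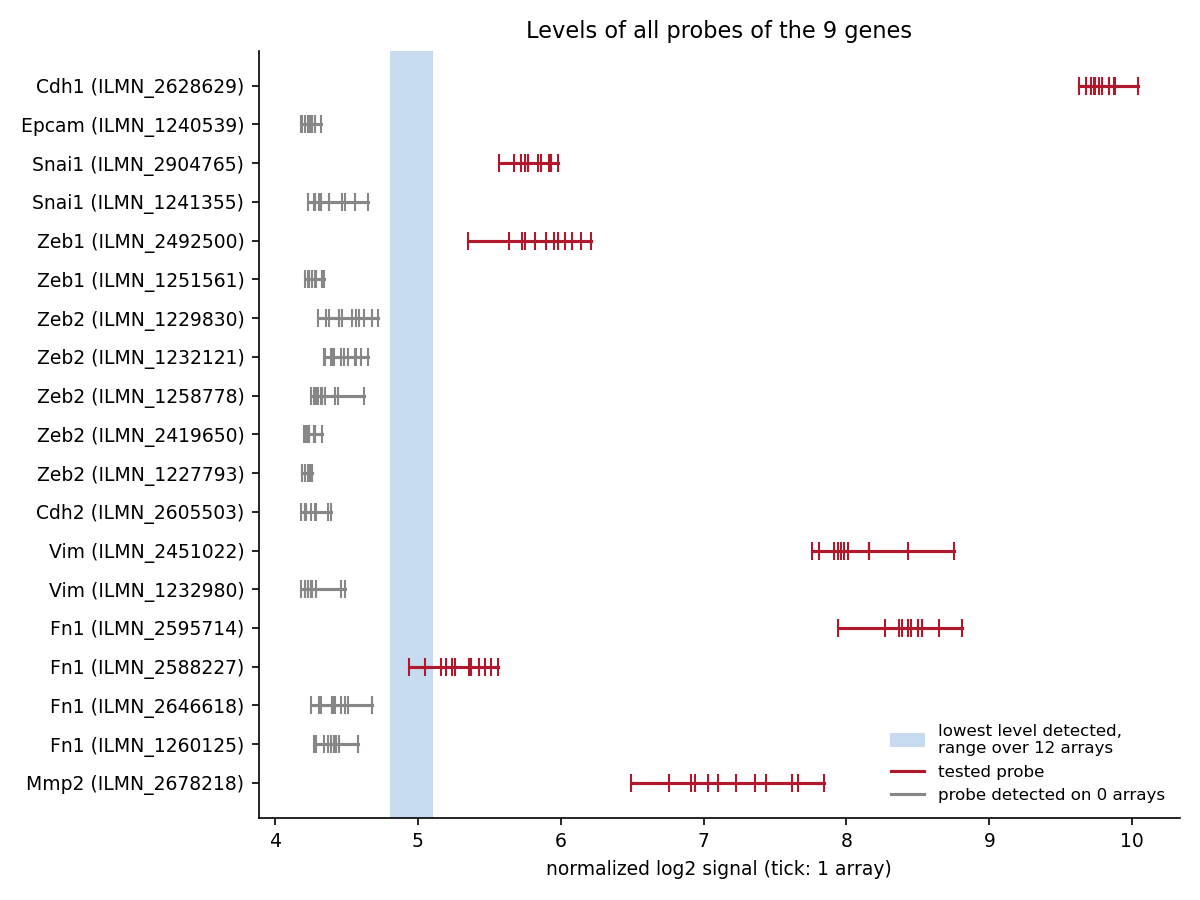
Normalized log2 signal of all 19 probes of the 9 genes, each tick 1 of the 12 arrays and each line the range over arrays; the blue band is the lowest level at which any probe was detected, 4.81 to 5.10 over the arrays. The 7 tested probes (red) reach above the band and the 12 probes detected on 0 arrays (grey) lie below it, between 4.18 and 4.72.

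E-cadherin, the product of Cdh1, is the main epithelial cadherin and the one that holds stem cell colonies together. In Tcf15-E47 cells, replicate 1 and then 2, Cdh1 (ILMN_2628629) was at 9.84 and 9.88 at 0 h, 9.73 and 9.87 at 8 h, 9.77 and 9.84 at 12 h, and 10.04 and 9.63 at 24 h. Parental cells had 9.68 and 9.74 at 0 h and 9.79 and 9.71 at 8 h. The arrays at 8 h and 24 h overlapped with those at 0 h, and both 24 h arrays bracketed every other array: replicate 1 was the highest of all 12 and replicate 2 the lowest.

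The log2 change of Cdh1 was −0.06 ± 0.127 at 8 h, −0.06 ± 0.127 at 12 h and −0.03 ± 0.127 at 24 h (SE, n = 2 arrays per group; limma adjusted p = 0.999, 0.827 and 0.939). With median scaling in place of quantile normalization these small values were 0.10 at 12 h and 0.13 at 24 h, beside a median over all tested probes of 0.10 and 0.12. The 95% interval at 24 h ran from −0.30 to 0.24, which is 1.23-fold lower to 1.18-fold higher. In parental cells the log2 change at 8 h was 0.04 ± 0.127 (adjusted p = 0.98), or 0.08 without replicate 2 at 8 h, and the difference of both 8 h responses was −0.10 ± 0.179 (adjusted p = 0.986), or −0.14 without that array. Without dox, Tcf15-E47 cells lay 0.15 ± 0.127 above parental cells (adjusted p = 0.534). In bulk RNA, fewer cells with a transcript and less of it per cell cannot be told apart.

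**Figure D3:**
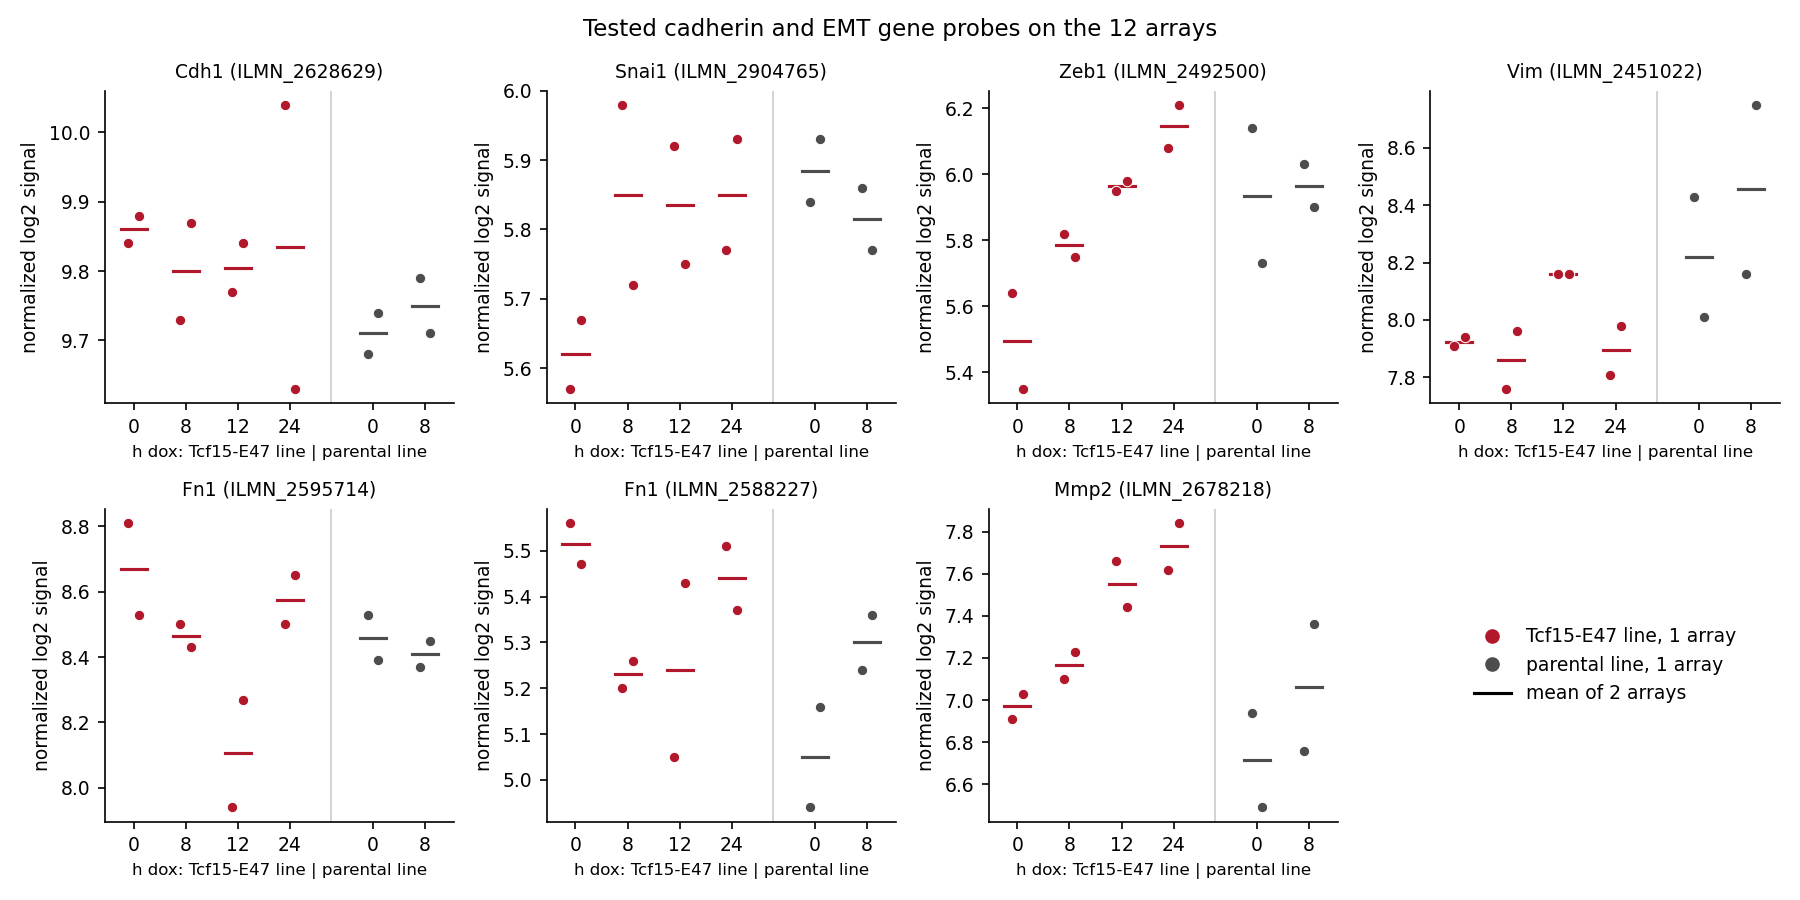
Normalized log2 signal of the 7 tested probes on each of the 12 arrays (points) with the mean of the 2 arrays (lines), by hours of dox, for Tcf15-E47 cells (red) and parental cells (grey); each panel has its own scale, which does not start at 0. Zeb1 and Mmp2 are highest at 24 h among Tcf15-E47 cells, Fn1 (ILMN_2595714) is lowest at 12 h, and Cdh1 at 24 h spans 9.63 to 10.04.

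Zeb1 is a zinc finger factor that represses epithelial genes, among them Cdh1, in many cell types. Zeb1 (ILMN_2492500) was at 5.64 and 5.35 at 0 h, 5.82 and 5.75 at 8 h, 5.95 and 5.98 at 12 h, and 6.08 and 6.21 at 24 h in Tcf15-E47 cells. In parental cells it was at 6.14 and 5.73 at 0 h and at 6.03 and 5.90 at 8 h. Within the Tcf15-E47 line, the arrays of each time lay above all arrays of the time before, and the 24 h arrays overlapped with the untreated parental arrays.

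Zeb1 rose by 0.65 ± 0.139 log2 units at 24 h (SE, n = 2 arrays per group; 95% interval 0.35 to 0.95; limma adjusted p = 0.0274). At 12 h its log2 change was 0.47 ± 0.139 (adjusted p = 0.0658) and at 8 h 0.29 ± 0.139 (adjusted p = 0.999), which did not pass, and 24 h against 12 h gave 0.18 ± 0.139 (adjusted p = 0.549). In parental cells the 8 h change was 0.03 ± 0.139 (adjusted p = 0.988), or 0.10 without replicate 2 at 8 h, and the 2 lines' responses at 8 h differed by 0.26 ± 0.197 (adjusted p = 0.975), or 0.19 without that array. Untreated Tcf15-E47 cells averaged 5.49 and untreated parental cells 5.93, a difference of −0.44 ± 0.139 (adjusted p = 0.0975). The 24 h call was lost when any 1 of the 4 arrays compared was left out (adjusted p from 0.054 to 0.205), with a log2 change of 0.50 to 0.79. The authors' deposited table gives Zeb1 a log2 fold change of 0.28 at 24 h with an adjusted p of 0.0433, on values without background subtraction. That table also gives adjusted p values to probes not tested here, such as that of Epcam, so both adjustments cover different probes.

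Snai1 encodes Snail, a zinc finger repressor of Cdh1 that the mouse embryo needs for EMT at gastrulation. Snai1 (ILMN_2904765) was at 5.57 and 5.67 at 0 h, 5.98 and 5.72 at 8 h, 5.92 and 5.75 at 12 h, and 5.77 and 5.93 at 24 h in Tcf15-E47 cells. Parental cells had 5.84 and 5.93 at 0 h and 5.86 and 5.77 at 8 h. All 6 treated arrays of the Tcf15-E47 line lay above its untreated arrays, and the untreated arrays were the lowest of all 12. The log2 change was 0.23, 0.21 and 0.23 at 8, 12 and 24 h, each with an SE of 0.118, and none passed (limma adjusted p = 0.999, 0.302 and 0.33). The 8 h change in parental cells was −0.07 ± 0.118 (adjusted p = 0.964), or −0.02 without replicate 2 at 8 h, and the responses differed by 0.30 ± 0.167 (adjusted p = 0.975), or 0.25 without that array. Untreated Tcf15-E47 cells averaged 5.62 and untreated parental cells 5.88, a difference of −0.26 ± 0.118 that did not pass (adjusted p = 0.227).

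Vimentin, the product of Vim, is the intermediate filament protein of mesenchymal cells and is also made by many cultured cells. Vim (ILMN_2451022) was at 7.91 and 7.94 at 0 h, 7.76 and 7.96 at 8 h, 8.16 and 8.16 at 12 h, and 7.81 and 7.98 at 24 h in Tcf15-E47 cells. In parental cells it was at 8.43 and 8.01 at 0 h and at 8.16 and 8.75 at 8 h. Only the 12 h arrays of the Tcf15-E47 line lay apart from 0 h, above it, and the highest array was the parental one with the smooth muscle markers.

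The log2 change of Vim was −0.07 ± 0.175 at 8 h, 0.23 ± 0.175 at 12 h and −0.03 ± 0.175 at 24 h (limma adjusted p = 0.999, 0.461 and 0.952). The 95% interval at 24 h was −0.41 to 0.35, and median scaling gave 0.13 there. In parental cells the 8 h change was 0.24 ± 0.175 (adjusted p = 0.88), and without replicate 2 it was −0.05. The responses of the lines at 8 h differed by −0.31 ± 0.247 (adjusted p = 0.975), and by −0.02 without that array. Untreated Tcf15-E47 and parental cells differed by −0.29 ± 0.175 (adjusted p = 0.38).

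Fibronectin, the product of Fn1, is a matrix glycoprotein that cells bind through integrins. Fn1 (ILMN_2595714) was at 8.81 and 8.53 at 0 h, 8.50 and 8.43 at 8 h, 7.94 and 8.27 at 12 h, and 8.50 and 8.65 at 24 h in Tcf15-E47 cells. Parental cells had 8.53 and 8.39 at 0 h and 8.37 and 8.45 at 8 h. The 12 h arrays were the lowest of all 12, and at 24 h the arrays overlapped with 0 h again.

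Fn1 fell by 0.57 log2 units at 12 h on this probe, a log2 change of −0.57 ± 0.131 (SE, n = 2 arrays per group; 95% interval −0.85 to −0.28; limma adjusted p = 0.0243). Its log2 change was −0.20 ± 0.131 at 8 h (adjusted p = 0.999) and −0.09 ± 0.131 at 24 h (adjusted p = 0.765; 0.07 with median scaling). At 24 h against 12 h the difference was 0.47 ± 0.131, which did not pass (adjusted p = 0.106). In parental cells the 8 h change was −0.05 ± 0.131 (adjusted p = 0.972), or −0.09 without replicate 2 at 8 h. The 12 h call was lost without replicate 1 at 0 h (log2 change −0.43, adjusted p = 0.179) and without replicate 1 at 12 h (−0.40, adjusted p = 0.227). The authors' deposited table gives −0.46 at 12 h with an adjusted p of 0.0204, on values without background subtraction and with another set of probes adjusted.

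The other tested Fn1 probe, ILMN_2588227, was detected on 10 of the 12 arrays, all but replicate 1 at 12 h and replicate 1 of the untreated parental cells, and did not pass at any time. In Tcf15-E47 cells it was at 5.56 and 5.47 at 0 h, 5.20 and 5.26 at 8 h, 5.05 and 5.43 at 12 h, and 5.51 and 5.37 at 24 h. In parental cells it was at 4.94 and 5.16 at 0 h and at 5.24 and 5.36 at 8 h. The log2 change at 12 h was −0.27 ± 0.132 (limma adjusted p = 0.242), with the same sign as the called probe. At 8 h both arrays lay below 0 h in Tcf15-E47 cells and above 0 h in parental cells, a difference of responses of −0.54 ± 0.187 (unadjusted p = 0.0128, limma adjusted p = 0.812) that did not pass, or −0.48 without replicate 2 of the parental cells at 8 h.

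Mmp2 encodes matrix metalloproteinase 2, a gelatinase that cleaves basement membrane collagen. Mmp2 (ILMN_2678218) was at 6.91 and 7.03 at 0 h, 7.10 and 7.23 at 8 h, 7.66 and 7.44 at 12 h, and 7.62 and 7.84 at 24 h in Tcf15-E47 cells. In parental cells it was at 6.94 and 6.49 at 0 h and at 6.76 and 7.36 at 8 h. All 4 arrays at 12 and 24 h lay above every other array of both lines, and the 12 and 24 h arrays overlapped with each other.

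Mmp2 rose by 0.76 ± 0.186 log2 units at 24 h (SE, n = 2 arrays per group; 95% interval 0.36 to 1.16; limma adjusted p = 0.0446). At 12 h its log2 change was 0.58 ± 0.186 (adjusted p = 0.0878) and at 8 h 0.20 ± 0.186 (adjusted p = 0.999), and neither passed. The 12 h change did pass in 5 of 9 other settings of the processing (limma adjusted p from 0.00757 to 0.256). In parental cells the 8 h change was 0.34 ± 0.186 (adjusted p = 0.812), and it was 0.04 without replicate 2. The responses of the lines at 8 h differed by −0.15 ± 0.263 (adjusted p = 0.986), and by 0.15 without that array. Untreated Tcf15-E47 cells averaged 6.97 and untreated parental cells 6.72 (difference 0.25 ± 0.186, adjusted p = 0.473). The 24 h call was lost when any 1 of the 4 arrays compared was left out (adjusted p from 0.11 to 0.22), with a log2 change of 0.65 to 0.87. The authors' deposited table gives 0.52 at 24 h with an adjusted p of 0.058, on values without background subtraction. Adjusted p values are given there to probes not tested here as well.

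**Figure D4:**
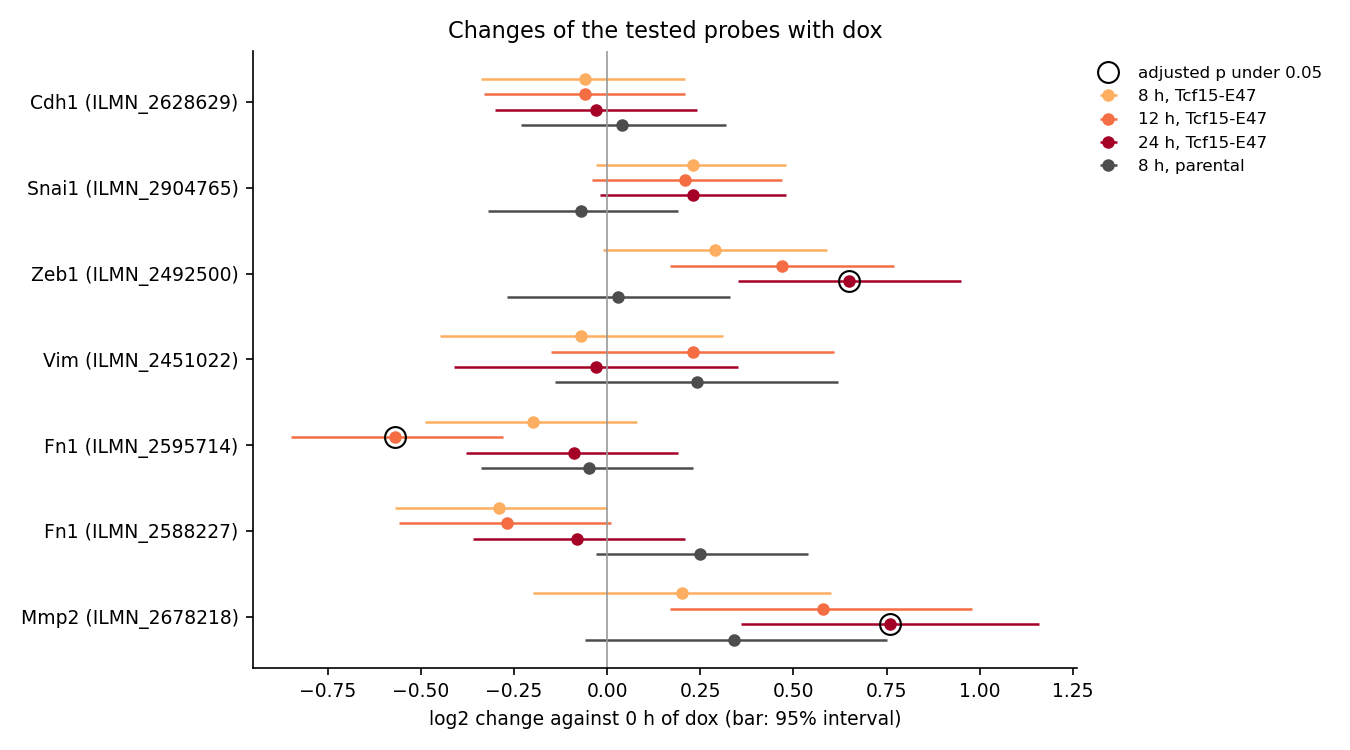
Log2 change against 0 h of dox for the 7 tested probes, with 95% intervals from the limma fit, at 8, 12 and 24 h in Tcf15-E47 cells and at 8 h in parental cells; open circles mark an adjusted p under 0.05. The circled values are Fn1 (ILMN_2595714) at 12 h (−0.57), Zeb1 at 24 h (0.65) and Mmp2 at 24 h (0.76), and the intervals of Cdh1 include 0 in all 4 comparisons.

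Counted together, 2 of the 7 tested probes were called at 24 h, both higher, where 3.06% of all tested probes were called and 1.24% were called higher. At 12 h 1 of 7 was called, lower, against 6.07% of all called and 3.69% called lower, and at 8 h 0 of 7 were called in Tcf15-E47 cells, against 0.0144%. No probe of the 7 was called between 24 and 12 h (0.949% of all), in parental cells at 8 h (0%), between the 8 h responses of the lines (0%) or between the untreated lines (3.51%). Unadjusted p values under 0.05 numbered 1, 3 and 2 of the 7 at 8, 12 and 24 h in Tcf15-E47 cells, and 4.28%, 22.5% and 18.2% of all probes had one. In the 5 comparisons with 0 called they numbered 1 at 8 h in Tcf15-E47 cells, 1 between 24 and 12 h (16.2% of all probes), 0 in parental cells (6.32%), 1 between the responses (5.17%) and 3 between the untreated lines (20.8%).

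The 7 probes lay on both sides of 0 at each time. Their median log2 change was −0.06 at 8 h, 0.21 at 12 h and −0.03 at 24 h, against medians of 0.00, 0.01 and 0.00 over all tested probes. Of the 7, 3 lay above and 4 below 0 at 24 h, and 4 above and 3 below at 12 h. At 12 h the 2 arrays of all 7 probes lay clear of those at 0 h, 4 above and 3 below, and so did those of 56% of all tested probes. At 24 h 3 of 7 lay clear, all above, against 47.8% of all in either direction and 24.2% above. These comparisons share the 0 h arrays.

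Between the untreated lines, the 3 genes Snai1, Zeb1 and Vim had both Tcf15-E47 arrays below both parental arrays, and Cdh1 and both Fn1 probes had them above. Such separation was seen for 48% of all tested probes. The largest of these differences was that of Fn1 (ILMN_2588227), 0.47 ± 0.132 (limma adjusted p = 0.0683), with 1 of the 2 parental arrays below detection.

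For the 3 genes with a called probe, the genes whose levels ran most alike over the 12 arrays were looked up by Pearson r, as a description. For Zeb1 they were Polh (r = 0.915), Slc35b4 (0.906) and Erg28 (0.898). For Fn1 they were Rev3l (0.884), Myh10 (0.877) and Afdn (0.873). For Mmp2 they were Emp1 (0.970), Prkar1a (0.953) and Psmd9 (0.952). The 12 arrays fall into 6 groups of 2 and all genes share them.

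Other cadherin and junction genes were read from lists chosen with earlier results of these data known. Cdh3 encodes P-cadherin, a classical cadherin that can stand beside E-cadherin in epithelia. Its probe ILMN_3156246 was at 5.86 and 6.21 at 0 h, 6.69 and 6.60 at 8 h, 6.51 and 6.65 at 12 h, and 7.13 and 6.89 at 24 h in Tcf15-E47 cells, and parental cells had 6.18 and 5.91 at 0 h and 6.47 and 6.21 at 8 h. All treated Tcf15-E47 arrays lay above every parental array.

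Cdh3 rose by 0.97 ± 0.147 log2 units at 24 h on this probe (limma adjusted p = 0.00412), and by 0.87 (adjusted p = 0.0112) on ILMN_1222853, which was detected on 1 of the 2 untreated arrays. The remaining probe, ILMN_2444594, rose by 0.52 (adjusted p = 0.0406), and passed in 2 of 8 other settings (adjusted p up to 0.166). It was not detected on either untreated array, which bounds that change at least 1.24-fold higher. At 12 h only ILMN_3156246 passed, with 0.54 ± 0.147 (adjusted p = 0.0471), and the others had adjusted p values of 0.0515 and 0.0519. At 8 h no Cdh3 probe passed in either line. The changes in Tcf15-E47 and then parental cells were 0.61 and 0.30 on ILMN_3156246, 0.60 and 0.49 on ILMN_1222853, and 0.37 and 0.09 on ILMN_2444594. The responses differed by 0.31, 0.11 and 0.27 (adjusted p = 0.975, 0.988 and 0.975). Without replicate 2 at 8 h the parental changes were 0.43, 0.40 and −0.06, and the differences 0.18, 0.20 and 0.43 (adjusted p = 0.998 each). The 24 h call of ILMN_3156246 was lost only without replicate 1 at 0 h (0.80, adjusted p = 0.0548). That of ILMN_1222853 held in 1 of the 4 cases with an array left out (adjusted p up to 0.0863), and that of ILMN_2444594 and the 12 h call in 0 (up to 0.224 and 0.287). The difference between the changes of Cdh1 and Cdh3 was not tested.

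**Figure D5:**
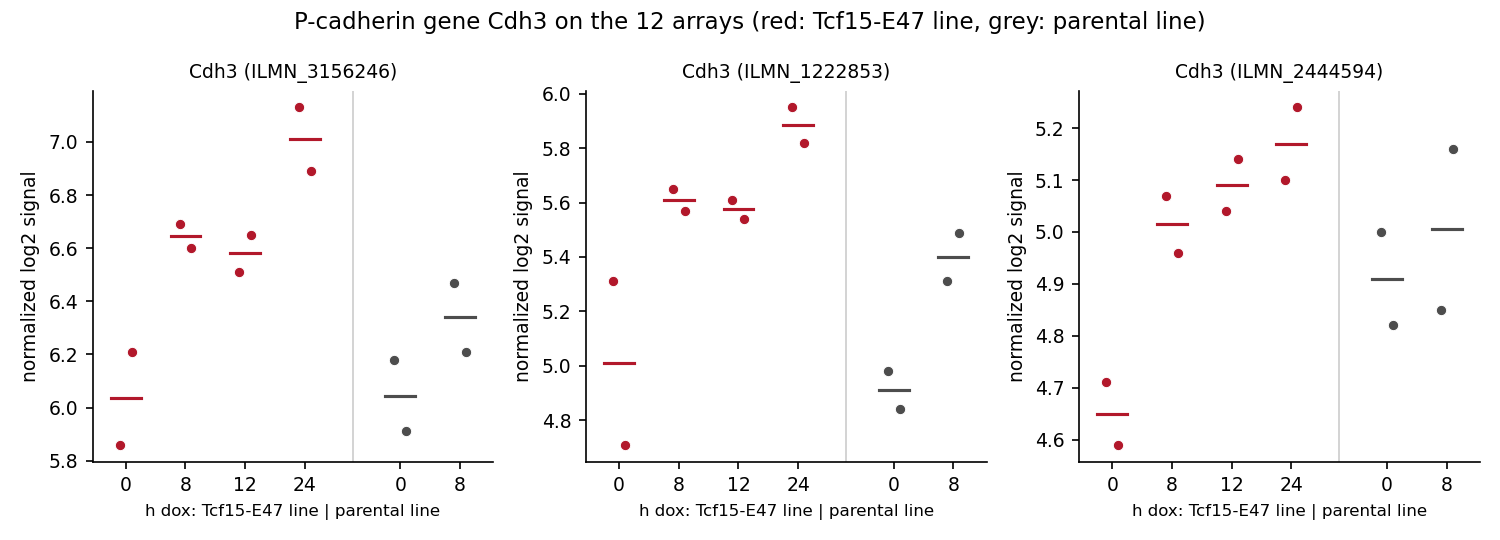
Normalized log2 signal of the 3 Cdh3 probes on each of the 12 arrays (points) with the mean of the 2 arrays (lines), by hours of dox, for Tcf15-E47 cells (red) and parental cells (grey); each panel has its own scale, which does not start at 0. All 3 probes are higher at 24 h than at 0 h in Tcf15-E47 cells, and ILMN_3156246 reaches 7.13.

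Of all tested probes, 6.07% were called at 12 h, 3.06% at 24 h and 0.0144% at 8 h, and the counts of list genes below stand beside those shares. Among the other adherens junction genes, 6 of 8 were tested. At 12 h 1 of them rose, Cdh3, and 1 fell, Afdn, which encodes the actin-binding junction protein afadin. Afdn was at 10.12 and 10.24 at 12 h against 10.96 and 10.79 at 0 h, a log2 change of −0.69 ± 0.114 (limma adjusted p = 0.00422), and its other probe gave −0.54 (adjusted p = 0.00787). The median of the 6 genes was −0.08 at 12 h and 0.11 at 24 h, against 0.01 and 0.00 over all tested probes. Without replicate 1 at 0 h or at 12 h the Afdn value was −0.61 or −0.63 (adjusted p = 0.0526 and 0.0623). Of 10 tested tight junction and desmosome genes, 1 was called lower at 12 h and 0 were called at 24 h. That gene was Dsg2, which encodes the desmosomal cadherin desmoglein 2, with −0.60 (adjusted p = 0.00945) on 1 probe and −0.22 (adjusted p = 0.432) on the other, and its call was lost without any 1 of the 4 arrays (adjusted p from 0.0578 to 0.0792). Of 17 tested epithelial regulators and polarity genes, 0 were called at 8, 12 or 24 h, with medians of 0.00, 0.00 and −0.02. Farthest from 0 was Elf3, with −0.46 at 12 h (limma adjusted p = 0.0989) and −0.60 at 24 h (adjusted p = 0.0529). At both times 8 of the 17 lay above 0.

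Of 13 further EMT transcription factors, such as Twist1 and Snai2, 4 were tested. Tcf3, the gene of E47, was the one that rose, by 1.40 ± 0.199 at 12 h (limma adjusted p = 0.00193) and 0.93 ± 0.199 at 24 h (adjusted p = 0.0264), the 24 h call holding with 1 of the 4 arrays left out in turn (adjusted p from 0.0404 to 0.185). Its other probe passed at 8, 12 and 24 h, with 1.28, 0.98 and 1.07 (limma adjusted p = 0.0256, 0.00387 and 0.00389). E47 is part of the induced fusion, and whether these probes read its transcript was not tested. Of 15 tested genes of the mesenchymal cytoskeleton and adhesion, 0 were called at 12 h and 1 fell at 24 h. It was Ncam1, a neural cell adhesion molecule, at 4.62 and 4.69 at 24 h against 5.34 and 5.40 at 0 h (adjusted p = 0.0156). The 24 h arrays were below detection, which bounds the change at least 1.26-fold lower, and the call was lost without any 1 of the 4 arrays (adjusted p from 0.0778 to 0.11). The median of the 15 genes was 0.04 at 24 h.

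Of 13 tested matrix genes and matrix enzymes, 1 rose and 2 fell at 12 h, and 1 rose and 1 fell at 24 h. Lama1, a laminin chain of the early basement membrane, was at 6.81 and 6.86 at 24 h against 7.77 and 7.93 at 0 h, a log2 change of −1.02 ± 0.15 (limma adjusted p = 0.00389). Col4a1, a chain of the collagen that Mmp2 can cleave, fell by 0.59 at 12 h (log2 change −0.59 ± 0.141, adjusted p = 0.0282). Tgfbi, a matrix protein named for its response to TGF-beta, was at 7.39 and 7.32 at 24 h against 6.35 and 6.33 at 0 h, a log2 change of 1.01 ± 0.106 (adjusted p = 0.000447), while its other probe gave 0.45 and did not pass (adjusted p = 0.0883). With each of the 4 arrays left out in turn, the Tgfbi call held in 4 cases, and that of Lama1 at 24 h in 3 (−0.94, adjusted p = 0.0552 without replicate 2 at 0 h). That of Col4a1 held in 0 (adjusted p from 0.0531 to 0.21). Primitive endoderm, a cell type that lays down basement membrane and can arise in such cultures, had 4 of its 10 markers tested. The summed level of all 10 was 284 to 296 at 12 h and 298 to 308 at 24 h, against 299 to 322 at 0 h. It includes the background signal of the 6 markers not tested, among them Gata4, Sox17 and Foxa2, which were detected on 0 arrays. Of the 4, Sox7 fell at 24 h (−0.47 ± 0.108, adjusted p = 0.0359, at least 1.04-fold), with 0.29 (adjusted p = 0.429) on its other probe, and without any 1 of the 4 arrays its call was lost (adjusted p from 0.0682 to 0.241), and it held in 4 of 9 other settings. Dab2 was −0.46 at 12 h (adjusted p = 0.0532) and −0.08 at 24 h (adjusted p = 0.809). The part of these cells in the changes of Lama1 and Col4a1 was not tested. Of 9 tested genes of TGF-beta signalling itself, 0 were called in any of the 7 comparisons, with medians of 0.05, 0.19 and 0.13 at 8, 12 and 24 h.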

How the data were processed

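RNA of 12 samples was labelled and hybridized to Illumina BeadChips, per the labels' protocols. The table of non-normalized values that the authors deposited holds bead signal intensity, not background-subtracted as its values show, and detection p-values, per the file headers. The deposited normalized values are log2 values, made with limma per the submitters' processing notes, and quantile normalized without background subtraction, as the values show. A further deposited table gives the authors' own comparisons as log2 fold changes with adjusted p-values, per the file headers.

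The 30854 entry names of the intensity table match 0 of the 38561 probes, so each probe's signal and detection p were recovered through the rank-preserving curve between both tables (isotonic regression, scikit-learn 1.9.0, fitted on 17069 entries matched on all 12 arrays). Of 8567 entries held out, 99.988% found the same probe, with a median miss of 9.23e-06 log2 units. That probe had itself been assigned by value, so this share cannot show that the assignments are right. Among the tested probes, those of Zeb1 and Mmp2 had a matched entry of their own. Those of Cdh1, Snai1, Vim and Fn1 had none. Their signals and detection p were read from the curve, and the check does not cover them. Signals went through neqc (limma 3.58.1, R 4.3.3; offset 16). Probes were kept where 2 or more arrays had a detection p below 0.01. The 6 group means were fitted in limma (lmFit, contrasts.fit, eBayes) over all 12 arrays, with Benjamini-Hochberg adjustment over 13914 probes, and tested on simulated data. There, 100 probes were changed at 24 h by each log2 step, with independent normal noise at the spread of the fit itself. Of changes of 0.5 log2 units 44% were called, and of those of 1 log2 unit 100%, with 4 false calls. These shares hold for that setting only. A change near 0.5 or smaller can go uncalled, and in the data larger ones did. Tcf3 (ILMN_2596278) had 1.20 at 8 h in Tcf15-E47 cells and was not called (limma adjusted p = 0.114). Background on each array was 85.5 to 97.4 units, which limits dim probes. Intervals are 95% and come from the fit.

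Genes were named from the platform annotation, 1 gene for 32093 probes, several for 16 and none for 6452. Named genes were all probes of the 9 genes, up to 4 called genes of each list by size, and the 3 most alike genes by r for each gene with a called probe. For the lists, the probe with the highest mean stood for each gene. The 9 genes and the lists were chosen with earlier results of these data known. No genome build was named in the files, so no coordinates are given, and no sequences are shown. Recovering signals by value was not part of the plan. Alternatives tried were the authors' values, no background correction, median scaling, no filter or a stricter one, 1 probe per gene, and trend and robust moderation. Others were fits of only the groups compared, with a replicate block, or with each array of the groups compared left out.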

Additional observations from a re-analysis of the deposited data

How the results depend on the processing

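Of 7 tested probes, 1 was called at 12 h, 2 from the authors' values, without background correction or with only the compared groups fitted, 3 with trend and robust moderation, 0 without the detection filter, and 0 to 1 with 1 array left out. At 24 h 2 were called, 1 with the replicate number as a block (Zeb1 passed and Mmp2 had an adjusted p of 0.0565), 0 without the filter, and 0 with any array left out. Between 24 and 12 h 0 were called, and 1 (Fn1) from the authors' values, without background correction or with trend and robust moderation. Other member counts stayed at 0. Fn1 at 12 h lost its call also with median scaling, Zeb1 at 24 h in 1 and Mmp2 at 24 h in 2 of 9 settings other than leaving an array out. At 12 h, Mmp2 gained a call in 5 and Zeb1 in 1 of these 9 settings. The labels do not say that a replicate number marks a shared culture or day, and deviations of same-numbered arrays from their group means correlated at −0.08 to 0.15 over 15 pairs of groups (0.10 to 0.15 among Tcf15-E47 0, 8 and 24 h, 0.00 to 0.03 between these and 12 h), so the main results use no block.

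No called member turned its direction. Uncalled ones did. Median scaling moved the median of all tested probes to 0.10 at 12 h and 0.12 at 24 h, and gave Cdh1 0.10 at 12 h and, at 24 h, Cdh1 0.13, Vim 0.13, and Fn1 0.02 and 0.07 on its probes; the split of all calls became 281 higher and 92 lower at 24 h (173 and 253 with quantile normalization), and 321 and 215 at 12 h (332 and 513). With 1 array left out, at 8 h Vim ran from −0.17 to 0.03 and Cdh1 from −0.14 to 0.01. At 24 h Vim ran from −0.12 to 0.05, Fn1 (ILMN_2595714) from −0.23 to 0.04 and Cdh1 from −0.23 to 0.17. For 24 against 12 h Cdh1 ran from −0.17 to 0.23, also 0.00, and Snai1 from −0.07 to 0.10, also −0.06. In parental cells Vim ran from −0.05 to 0.53, Zeb1 from −0.17 to 0.24, also −0.04, and Fn1 (ILMN_2595714) from −0.12 to 0.02. The difference of 8 h responses of Mmp2 ran from −0.45 to 0.15, also 0.08. The causes were not tested. Groups of 2 arrays and signals near background limit the precision. All probes called at 12 h numbered 845, and 536 to 1283 in other settings or 144 to 290 with 1 array left out. At 24 h they numbered 426, and 235 to 739 or 71 to 133. Between 24 and 12 h they numbered 132, and 16 to 424 or 2 to 11, and between the untreated lines 488, and 48 to 987 or 52 to 382.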

Other observations

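Some genes of the lists differed between the lines without dox, where 3.51% of all tested probes were called. Snai3, a Snail family member, averaged 6.68 in untreated Tcf15-E47 cells and 7.28 in untreated parental cells, a log2 difference of −0.59 ± 0.14 (SE, n = 2 arrays per group; limma adjusted p = 0.0359). Klf5, a factor that maintains both stem cells and epithelia, was lower in Tcf15-E47 cells by the same comparison (−0.61 ± 0.122, adjusted p = 0.0205). S100a6 (−0.63), the membrane-binding protein gene Anxa2 (−0.47) and the basement membrane collagen gene Col4a2 (−0.54) were also lower in Tcf15-E47 cells (adjusted p = 0.0471, 0.0346 and 0.0475). The call of Col4a2 held in 3 of 9 other settings, and those of Snai3, Klf5, S100a6 and Anxa2 in 6 or 7. When each of the 4 arrays compared was left out in turn, the call of Klf5 held in 1 case and those of Snai3, S100a6, Anxa2 and Col4a2 in 0. Among markers of other cells, the primitive endoderm genes Sox7 (−0.80 ± 0.108, adjusted p = 0.00329) and Amn (−0.67, adjusted p = 0.0444) were lower in Tcf15-E47 cells, and the fibroblast gene Dcn was higher (0.98, adjusted p = 0.0104, at least 1.61-fold, since it was not well above background in untreated parental cells). The call on Sox7 held in 4 of the 4 cases with an array left out, that on Dcn in 2 and that on Amn in 0, and the other Sox7 probe gave −0.46 (adjusted p = 0.176). The summed level of 10 primitive endoderm markers was 299 to 322 in untreated Tcf15-E47 cells and 391 to 416 in untreated parental cells. The part of such cells in the differences of Col4a2 and the other genes was not tested.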
